A study of Homo sapiens with 10 samples.

Results

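The genes described here are 43 genes of the G1/S transition and of DNA replication: cyclins E and E2F factors, origin licensing and helicase genes, the clamp and its loader, polymerases and primase, RPA, nucleotide supply, fragment maturation, histone mRNA processing and DNA methylation upkeep. They were chosen by name as E2F and replication genes, and Ensembl identifiers were mapped to symbols. Of the 43, 42 were found among the 20327 genes of the tables, and the RNA level of UHRF1 was not analysed here. RNA was sequenced from wild-type hTERT RPE-1 cells, an established human retinal pigment epithelial line immortalised with telomerase. All cells had spent 48 h in medium with 0.1% serum before treatment. In the first experiment 3 libraries came from cells given 200 µM merbarone for 30 min and 3 from cells given the vehicle DMSO for 30 min. In the second, 2 libraries came from cells given 200 µM merbarone for 2 h and 2 from untreated cells, which received no vehicle. Merbarone blocks the catalytic cycle of topoisomerase II, and the series concerns DNA supercoiling and pausing of RNA polymerase II near promoters. Nothing in the labels says whether replicates were separate cultures, so p-values measure the spread between these libraries, which may be technical.

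Entry into S phase is switched on when cyclin-dependent kinases release E2F factors from pocket proteins, and E2F then activates many of the genes that copy DNA. Licensing loads the MCM helicase onto origins in G1, CDC45 and GINS activate it in S phase, and the polymerases then work with the PCNA clamp, RPA and the enzymes that join Okazaki fragments. Serum starvation is widely used to bring such cells towards a resting state, in which these genes are known to be expressed at low levels.

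E2F factors bind short GC-rich sites, and such sites lie close to the start of many replication genes. RefSeq promoter windows (GRCh38.p14), each from 250 bases before to 50 bases after a transcription start, were found for 37 of the 43 genes. They were searched on both strands for TTTCCCGC, TTTCGCGC, TTTGCCGC and TTTGGCGC, of which a site such as TTTGGCGCGAAA holds 2 overlapping matches. At least 1 match was present for 22 of the 37 genes (59.5%), UHRF1 among them, and for 21 of the 36 that are in the tables (58.3%), against 3.99% of the 27305 genes with a window. A match is a description of the letters only. The 160 bases before the start are printed for 5 genes, with the matches in capitals. E2F1 and MCM6 carry several matches, CDT1 and POLE carry 1 each and are described further at 2 h, and FEN1, the gene that passed the test at 2 h, carries none in its window. These 5 were chosen after their values were seen. The windows are E2F1 chr20:33686386-33686545 (minus strand), MCM6 chr2:135876444-135876603 (minus), CDT1 chr16:88803629-88803788 (plus), POLE chr12:132687343-132687502 (minus) and FEN1 chr11:61792751-61792910 (plus).
E2F1: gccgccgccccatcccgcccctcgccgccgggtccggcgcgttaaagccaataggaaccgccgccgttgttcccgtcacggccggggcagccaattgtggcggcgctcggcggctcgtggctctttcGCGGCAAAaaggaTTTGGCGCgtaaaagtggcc
MCM6: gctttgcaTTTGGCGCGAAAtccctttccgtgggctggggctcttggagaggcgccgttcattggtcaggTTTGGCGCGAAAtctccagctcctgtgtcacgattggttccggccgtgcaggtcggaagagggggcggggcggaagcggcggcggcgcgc
CDT1: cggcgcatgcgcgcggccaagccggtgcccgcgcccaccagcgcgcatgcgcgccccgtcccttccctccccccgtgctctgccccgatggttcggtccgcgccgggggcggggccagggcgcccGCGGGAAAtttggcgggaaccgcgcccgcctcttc
POLE: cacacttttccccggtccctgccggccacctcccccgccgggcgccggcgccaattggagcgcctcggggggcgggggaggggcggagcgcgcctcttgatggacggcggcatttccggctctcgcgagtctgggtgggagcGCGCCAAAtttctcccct
FEN1: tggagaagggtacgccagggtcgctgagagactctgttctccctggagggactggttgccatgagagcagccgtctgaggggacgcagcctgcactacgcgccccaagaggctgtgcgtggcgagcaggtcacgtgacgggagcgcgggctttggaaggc
At 2 h the 13 tested genes with a match had a median log2 fold change of 0.01 and none passed the test. The 9 tested genes without one had a median of -0.07, and FEN1 passed. Over all 6620 genes tested the median was -0.05 and 13.1% were called. Whether genes with and without a match differ was not tested.

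The tables gave RPKM, reads scaled to gene length and library total. Totals behind them were 26644379 to 38240706 reads in the 30 min experiment and 11962092 to 13696974 in the 2 h experiment. A single replication gene drew on 75 to 8601 reads per library, with CCNE1 at the low end and MCM7 at the high end. The 6 genes listed as epithelial line markers, not all of them particular to epithelium, were present. Means over the 4 groups were 2.00 to 6.34 RPKM for KRT8, 17.0 to 66.8 for KRT18 and 666 to 884 for VIM. They were 3.81 to 5.56 RPKM for CTNNB1, 1.12 to 1.42 for CDH2 and 0.431 to 0.576 for TJP1. Markers of pigment epithelium were mixed: RPE65, RLBP1, TYR, TYRP1, LRAT and TTR, 6 of 10, had at most 47 reads in any library. The other 4 were present. Group means were 4.10 to 4.87 RPKM for PMEL, 3.23 to 4.48 for OTX2, 2.48 to 18.8 for BEST1 and 0.232 to 0.393 for MITF. In the annotation used here PMEL overlaps CDK2 and BEST1 overlaps FTH1, and how reads were split between them was not tested. Of 8 markers of other cell types, CD3E (T cells) and CDH5 (endothelium) were at 0, and all others but SNAP25 had at most 55 reads in any library. SNAP25, a neuronal marker, had 63 to 573 reads and on the transcript scale described next stood at 6.57 in DMSO and 2.86 in untreated cells, while the neuronal marker RBFOX3 had at most 6 reads.

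Starved control cells contained RNA of all 42 genes. Because the deposited lengths are mostly those of the whole gene with its introns, levels between genes are given on a transcript scale: reads scaled to the length of the canonical transcript and, as in RPKM, to the library total. On that scale the highest in untreated cells were PCNA, the sliding clamp (109 ± 0.891), TYMS, which makes thymidylate (103 ± 16.6), MCM7 of the replicative helicase (97.7 ± 1.78), TK1, a thymidine salvage kinase (83.0 ± 6.73), and RRM2, the small subunit of ribonucleotide reductase (67.5 ± 8.29; SD, n = 2). TYMS lay within 1 of its own SD of both PCNA and MCM7, so its place beside them cannot be told. The lowest were E2F2 (3.52 ± 0.377), CCNE1, which encodes cyclin E1 (3.66 ± 0.636), and POLE2, a subunit of polymerase epsilon (5.02 ± 0.674), and E2F2 and CCNE1 did not differ beyond their spread. In DMSO cells the same genes stood at the ends, with PCNA at 97.2 ± 9.16, MCM7 at 90.3 ± 3.08 and TYMS at 87.6 ± 5.61 above, and CCNE1 at 2.67 ± 0.613 and E2F2 at 2.38 ± 0.305 below (SD, n = 3). Among genes with reads, PCNA stood at percentile 96.1 in DMSO cells and E2F2 at percentile 35.2.

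**Figure D1:**
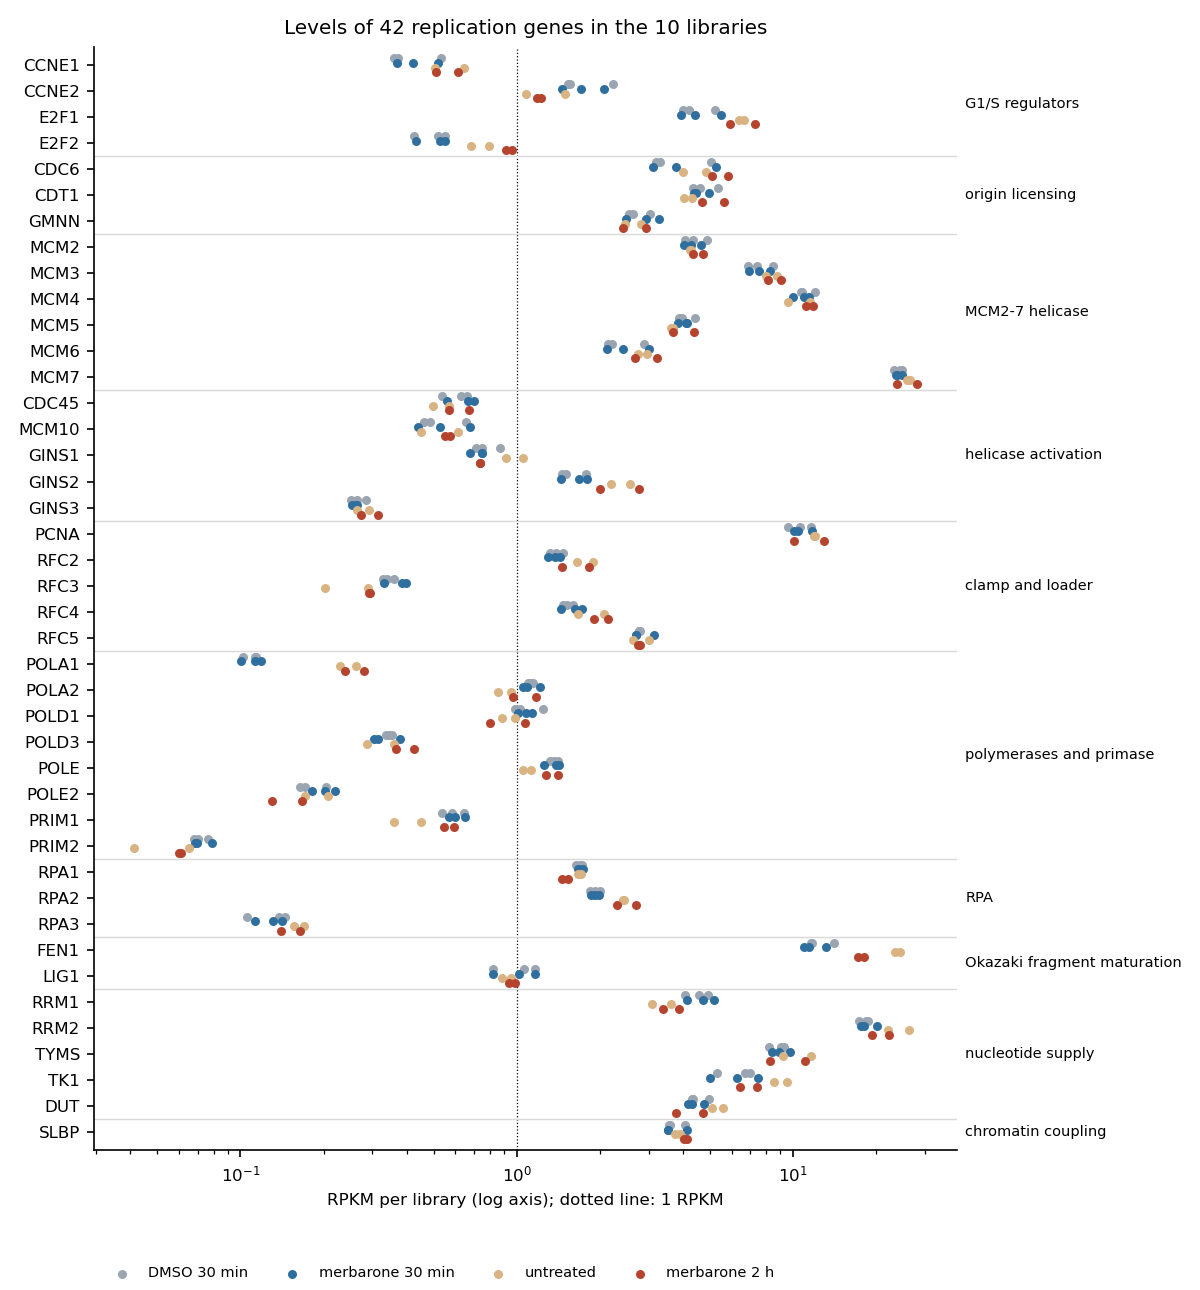
RPKM (log axis) of 42 replication genes in each of the 10 libraries, 1 point per library, grouped by role, with the dotted line at 1 RPKM, the minimum mean for a test. Points of the 4 groups overlap for most genes, while FEN1 lies at 23.4 and 24.4 RPKM in untreated cells and at or below 18.002 RPKM in the other 8 libraries.

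The MCM2-7 ring genes, which encode the 6 subunits of the helicase core, spanned a range of levels. In untreated cells MCM7 was at 97.7 on the transcript scale, MCM3 at 56.9, MCM4 at 46.8, MCM2 at 30.0, MCM6 at 28.0 and MCM5 at 26.8. Helicase activation genes were lower, from 5.79 for MCM10 to 14.0 for GINS3. Polymerase and primase genes ran from 5.02 for POLE2 to 15.0 for POLD3. Whether reads in introns were counted is not stated, so how closely these levels follow mature RNA was not tested.

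After 2 h of merbarone, 25 of 26 replication genes tested did not pass the test. FEN1, the flap endonuclease that trims Okazaki fragments, was the 1 that did, with a lower level. A mean of at least 1 RPKM was reached by 26 genes, each in both groups, and the other 16 are given by level only. Limma on log2(RPKM + 1), with Benjamini-Hochberg adjustment over all genes and a threshold of 0.05, called 1 of the 26 lower and 0 higher, against 13.1% of 6620 genes called in either direction. Of those genes 45.7% were higher, and 56.5% were with the GC trend of every library taken out, a setting that called 27.1% of all genes and 5 of the 26, CDC6, CDT1 and POLE higher and FEN1 and TK1 lower. Unadjusted p was under 0.05 for 6 of the 26. Their median log2 fold change was 0.01, against -0.05 over all genes, with 14 values above 0 and 12 below. The 95% confidence interval lay within ±0.5 for 23 of the 26, and for 5311 of all 6620 genes. The added 1 RPKM understates the change of low genes. With voom on recovered reads, described below and covering low genes too, it did for 27 of 42, and for 6643 of all 13441 genes. Treated and untreated libraries did not overlap for 9 of the 26 (34.6%), against 61.5% of all genes tested.

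**Figure D2:**
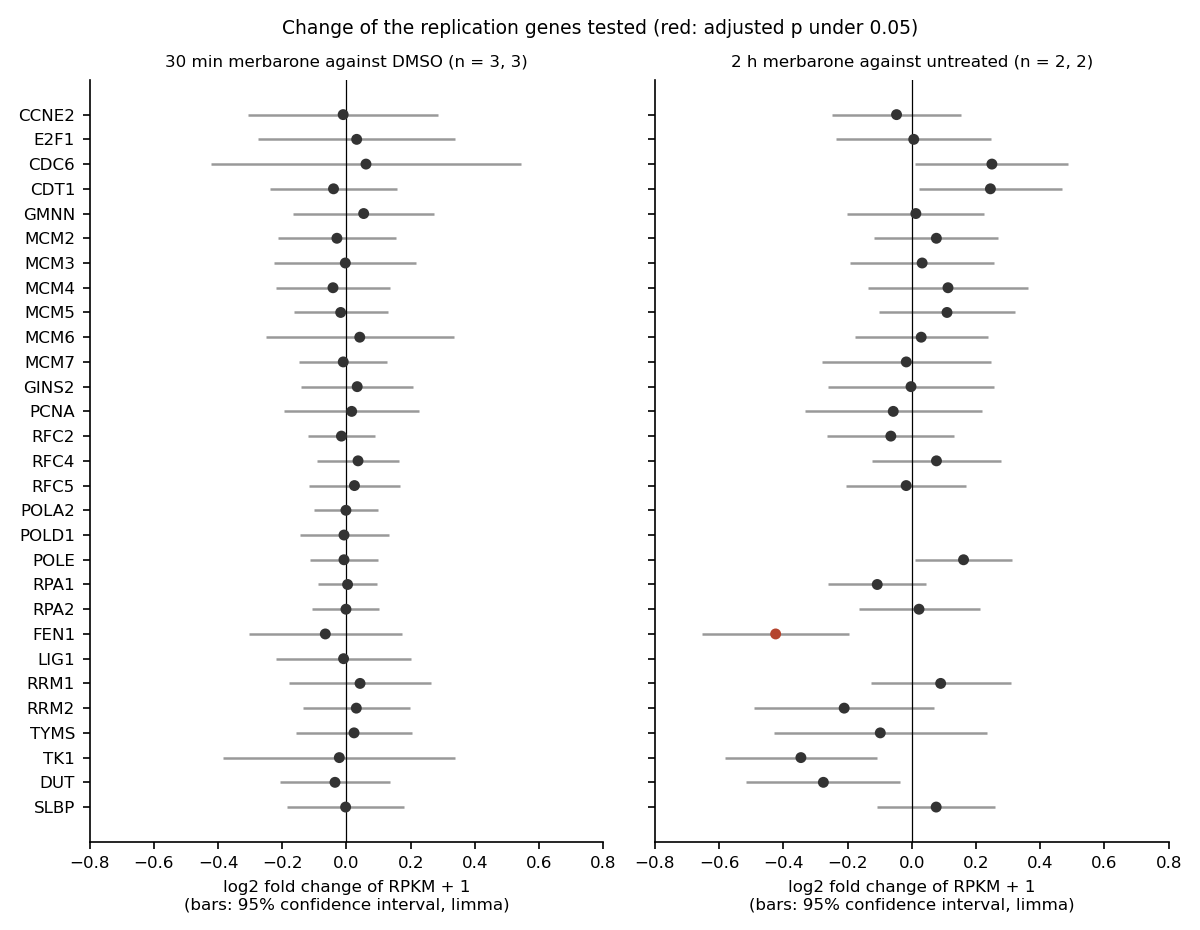
Log2 fold change of RPKM + 1 (points) with 95% confidence intervals from limma for the replication genes tested at 30 min (29 genes) and at 2 h (26 genes), FEN1 in red as the gene with an adjusted p under 0.05. The 30 min values lie between -0.07 and 0.06, and the 2 h values between -0.42 and 0.25.

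FEN1 (ENSG00000168496; GRCh37 chromosome 11, 61560383 to 61564710, plus strand) measured 24.4 and 23.4 RPKM in the untreated libraries and 17.11 and 18.002 RPKM after 2 h of merbarone. Both treated libraries lay below both untreated ones, and FEN1 had 1080 reads or more in every library. The log2 fold change was -0.42 ± 0.10 (SE, 95% confidence interval -0.65 to -0.19), with a limma adjusted p of 0.0281. The call was lost without a filter on low values (adjusted p 0.103), with quantile normalization (0.0658) and when either treated library was left out (0.333 and 0.165), while the fold change stayed between -0.46 and -0.32. FEN1 overlaps FADS2 in the annotation used here, and FADS2 measured 21.0 and 22.3 RPKM untreated and 19.8 and 20.1 treated, so how reads were split between them was not tested. In the DMSO libraries of the other experiment FEN1 stood at 14.1, 11.6 and 11.7 RPKM, below both 2 h merbarone libraries.

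Nucleotide supply genes included the next largest negative values, and none passed the test. TK1 (GRCh37 chromosome 17, 76170172 to 76183314, minus strand) measured 8.51 and 9.54 RPKM untreated and 6.40 and 7.39 treated, with no overlap and a log2 fold change of -0.35 ± 0.11 (SE, limma adjusted p 0.061). DUT, which removes dUTP, measured 5.56 and 5.11 RPKM untreated and 3.78 and 4.72 treated, with a log2 fold change of -0.28 ± 0.11 (SE, limma adjusted p 0.117). RRM2 measured 26.3 and 22.1 RPKM untreated and 19.2 and 22.3 treated. Its treated and untreated libraries overlapped, and the log2 fold change was -0.21 ± 0.12 (SE, limma adjusted p 0.279). TYMS and RRM1, the large subunit of ribonucleotide reductase, had values of -0.10 and 0.09 on the same scale.

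Values above 0 were found for the licensing genes, none of which passed the test. CDC6, which helps load MCM onto origins (chromosome 17, 38444131 to 38460909, plus strand), measured 4.83 and 4.003 RPKM untreated and 5.07 and 5.79 treated. CDT1, its partner in loading, measured 4.03 and 4.31 RPKM untreated and 4.69 and 5.60 treated. Neither gene's groups overlapped, and their log2 fold changes were 0.25 ± 0.11 and 0.24 ± 0.10 (SE), with limma adjusted p of 0.144 and 0.130. GMNN, which encodes the CDT1 inhibitor geminin, had a log2 fold change of 0.01. POLE, the catalytic subunit of the leading strand polymerase (chromosome 12, 133200339 to 133263962, minus strand), measured 1.124 and 1.06 RPKM untreated and 1.27 and 1.41 treated, a log2 fold change of 0.16 ± 0.07 (SE, limma adjusted p 0.137).

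**Figure D3:**
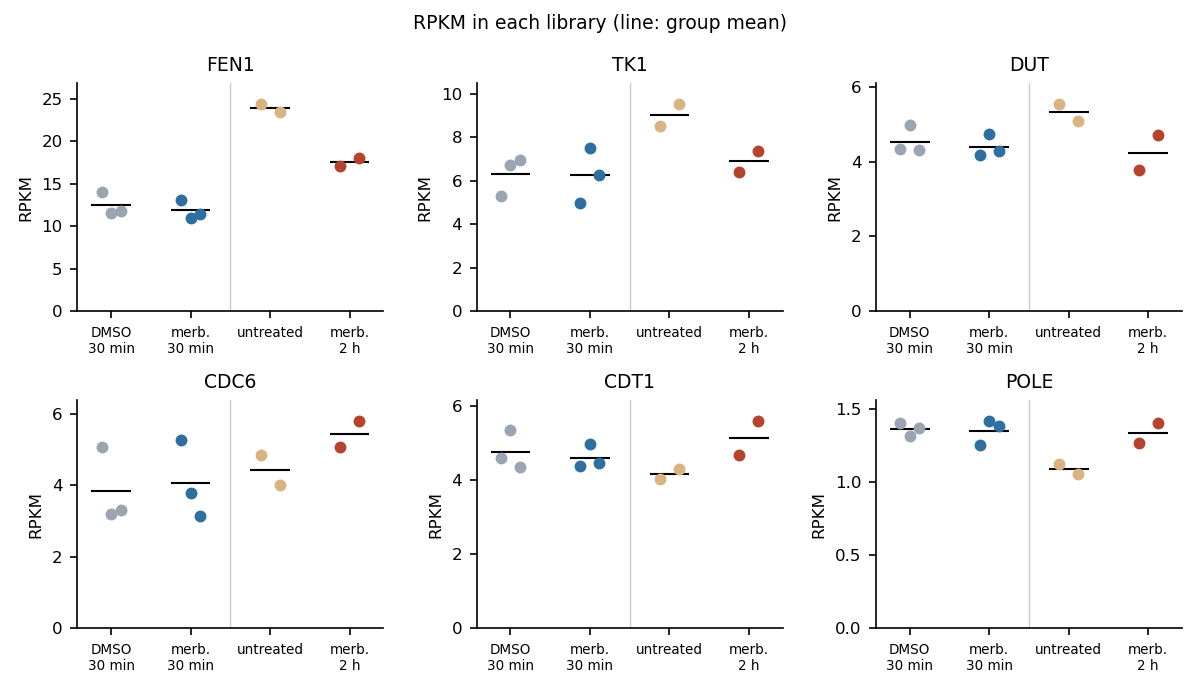
RPKM of FEN1, TK1, DUT, CDC6, CDT1 and POLE in each library (points) with group means (lines), for both experiments. In the 2 h experiment the treated points lie below the untreated ones for FEN1, TK1 and DUT and above them for CDC6, CDT1 and POLE, and in the 30 min experiment the groups overlap for all 6.

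None of the helicase genes and G1/S regulators passed the test at 2 h. MCM2 measured 4.25 and 4.26 RPKM untreated and 4.35 and 4.74 treated, a log2 fold change of 0.08 ± 0.09 (SE, limma adjusted p 0.573). Over MCM2 to MCM7 the log2 fold changes ran from -0.02 to 0.11, and the confidence intervals from -0.28 to 0.36. E2F1, a transcription factor that activates S phase genes (chromosome 20, 32263283 to 32274191, minus strand), measured 6.37 and 6.66 RPKM untreated and 5.90 and 7.26 treated, a log2 fold change of 0.01 ± 0.11 (SE, limma adjusted p 0.977). CCNE2, which encodes cyclin E2, measured 1.495 and 1.08 RPKM untreated and 1.18 and 1.23 treated, a log2 fold change of -0.05 ± 0.09 (SE, limma adjusted p 0.746). For both genes the treated values lay inside or around the untreated ones. PCNA measured 12.02 and 11.9 RPKM untreated and 10.1 and 13.0 treated, a log2 fold change of -0.06 ± 0.12 (SE, limma adjusted p 0.778). The clamp loader genes RFC2, RFC4 and RFC5 lay between -0.07 and 0.08, and RPA1 and RPA2, which coat single-stranded DNA, were at -0.11 and 0.02.

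The 16 genes under 1 RPKM included most polymerase, primase and helicase activation genes. They could be tested on whole reads recovered from the RPKM values, a setting added after seeing the data, in which all 42 genes reached a mean of 10 reads. Limma's voom called 3 of the 42, all lower, against 14.0% of 13441 genes: FEN1, TK1 and GINS1. GINS1, a subunit of the GINS complex, measured 1.05 and 0.912 RPKM untreated and 0.737 and 0.736 treated. Its voom log2 fold change was -0.41 ± 0.13 (SE, adjusted p 0.0383). GINS1 overlaps NINL, which measured 0.133 and 0.123 RPKM untreated and 0.123 and 0.124 treated.

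Other cell cycle genes were set beside the replication genes from lists chosen by name, and over all genes 13.1% were called at 2 h, 7.10% lower. Of 43 other replication genes 24 were tested at 2 h, and 2 were lower: CCNA2, encoding cyclin A2, with a log2 fold change of -0.52, and POLE4, a polymerase epsilon subunit, with -0.43. That is 8.33% of those tested, and the list median was -0.05. Of 24 E2F and pocket protein pathway genes 11 were tested, and CDKN1A, which encodes the kinase inhibitor p21, was the 1 called (9.09%), higher at 89.0 and 122 RPKM against 35.0 and 37.4 (limma adjusted p 0.000385). Of 30 mitotic genes 26 were tested, and 12 (46.2%) were lower and 0 higher, with a median of -0.20. The largest of these were KIF20A (-0.55), BIRC5 (-0.52) and PTTG1 (-0.51), which act in chromosome segregation and cytokinesis. The difference between the mitotic list and the replication genes was not tested. At 30 min 0 genes of these 3 lists were called.

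**Figure D4:**
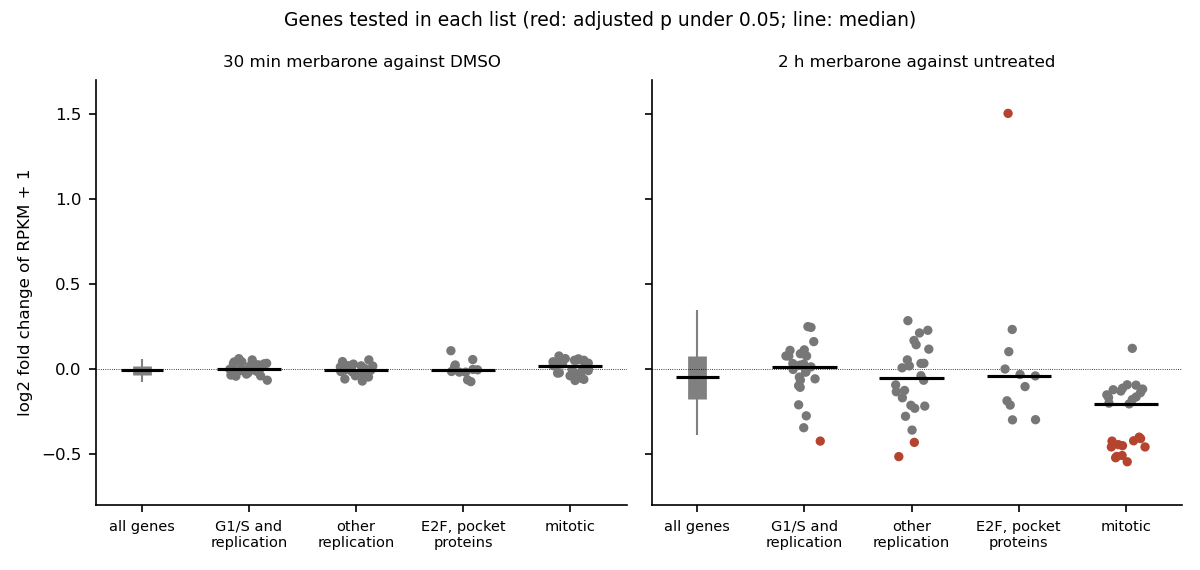
Log2 fold change of RPKM + 1 for every gene tested in 4 lists, 1 point per gene, with the list median as a line, beside the 5th to 95th percentile (thin bar), the quartiles (thick bar) and the median of all genes. At 2 h the medians are 0.01 for the replication genes and -0.20 for the mitotic genes, against -0.05 for all genes.

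After 30 min of merbarone no replication gene passed the test. Of the 29 tested, limma called 0 and 0 had an unadjusted p under 0.05, against 0.0154% of 6500 genes called. This fit left out the replicate number, so its SEs and intervals include spread shared by same-numbered libraries. Over all genes 24 had an unadjusted p under 0.05 in this fit, and 208 with the replicate number as a block. Log2 fold changes ran from -0.07 for FEN1 to 0.06 for CDC6. Confidence intervals lay within ±0.5 for 28 of 29, and for 6104 of all 6500 genes. Treated and DMSO libraries overlapped for all 29 (0 without overlap), against 2.28% of all genes without overlap. The count stayed at 0 in all 19 alternatives, those with the replicate block and with voom included.

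Values of single genes at 30 min show the spread. E2F1 measured 5.22, 4.22 and 3.997 RPKM in DMSO and 5.48, 4.40 and 3.94 after merbarone, a log2 fold change of 0.03 ± 0.13 (SE). CDC6 measured 5.05, 3.19 and 3.29 RPKM in DMSO and 5.27, 3.78 and 3.12 after merbarone, a log2 fold change of 0.06 ± 0.20 (SE). CCNE2 measured 2.23, 1.55 and 1.54 RPKM in DMSO and 2.07, 1.71 and 1.46 after merbarone, a log2 fold change of -0.01 ± 0.12 (SE). In these 3 genes replicate 1 was the highest in both groups, by more than the groups differed. MCM2 had 4.89, 4.06 and 4.34 RPKM in DMSO and 4.63, 4.27 and 4.04 after merbarone, PCNA had 11.6, 9.62 and 10.6 against 11.7, 10.4 and 10.1, and RRM2 had 17.4, 18.4 and 18.6 against 18.1, 20.1 and 17.6. Their log2 fold changes were -0.03 ± 0.08, 0.02 ± 0.09 and 0.03 ± 0.07 (SE). The limma adjusted p was 1 for all 6 genes after rounding.

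At 30 min replicate 1 stood apart from the others in both groups. Deviations of the 29 tested genes from the group means correlated at 0.966 between replicate 1 of DMSO and of merbarone, a description across genes, which are not independent. Replicates 2 and 3 correlated at 0.741 and 0.702 with their own number, and at 0.709 and 0.715 with each other's. Replicate 1 of either group correlated at -0.79 to -0.87 with replicates 2 and 3 of the other. Replicate 1 was the highest of both DMSO and merbarone for 14 of the 29 tested genes (48.3%), against 25.4% of all genes tested. Among the 42 genes there were 16: CCNE1, CCNE2, CDC6, GMNN, E2F1, MCM2, MCM3, MCM4, MCM6, MCM10, PCNA, RFC4, GINS2, RPA2, FEN1 and SLBP, which encodes the histone mRNA stem-loop binding protein. Replicate 1 was the lowest of both groups for 4 of the 29, among them TK1, at 5.30 RPKM against 6.72 and 6.97 in DMSO and at 4.99 against 7.495 and 6.28 after merbarone. All 28 mitotic genes tested were lowest in replicate 1 of both groups, against 37.1% of all genes tested. BIRC5, a mitotic gene, measured 9.11, 15.4 and 16.2 RPKM in DMSO and 9.10, 15.7 and 14.5 after merbarone. The same pair of libraries thus held the highest values of 14 replication genes and the lowest values of all 28 mitotic genes tested. Of 23 other replication genes tested, replicate 1 was the highest of both groups for 5 (21.7%) and the lowest for 9 (39.1%). Those shares were close to the 25.4% and 37.1% of all genes, unlike the 48.3% of the genes described here. In bulk RNA, fewer cells in a phase and less RNA per cell cannot be told apart.

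**Figure D5:**
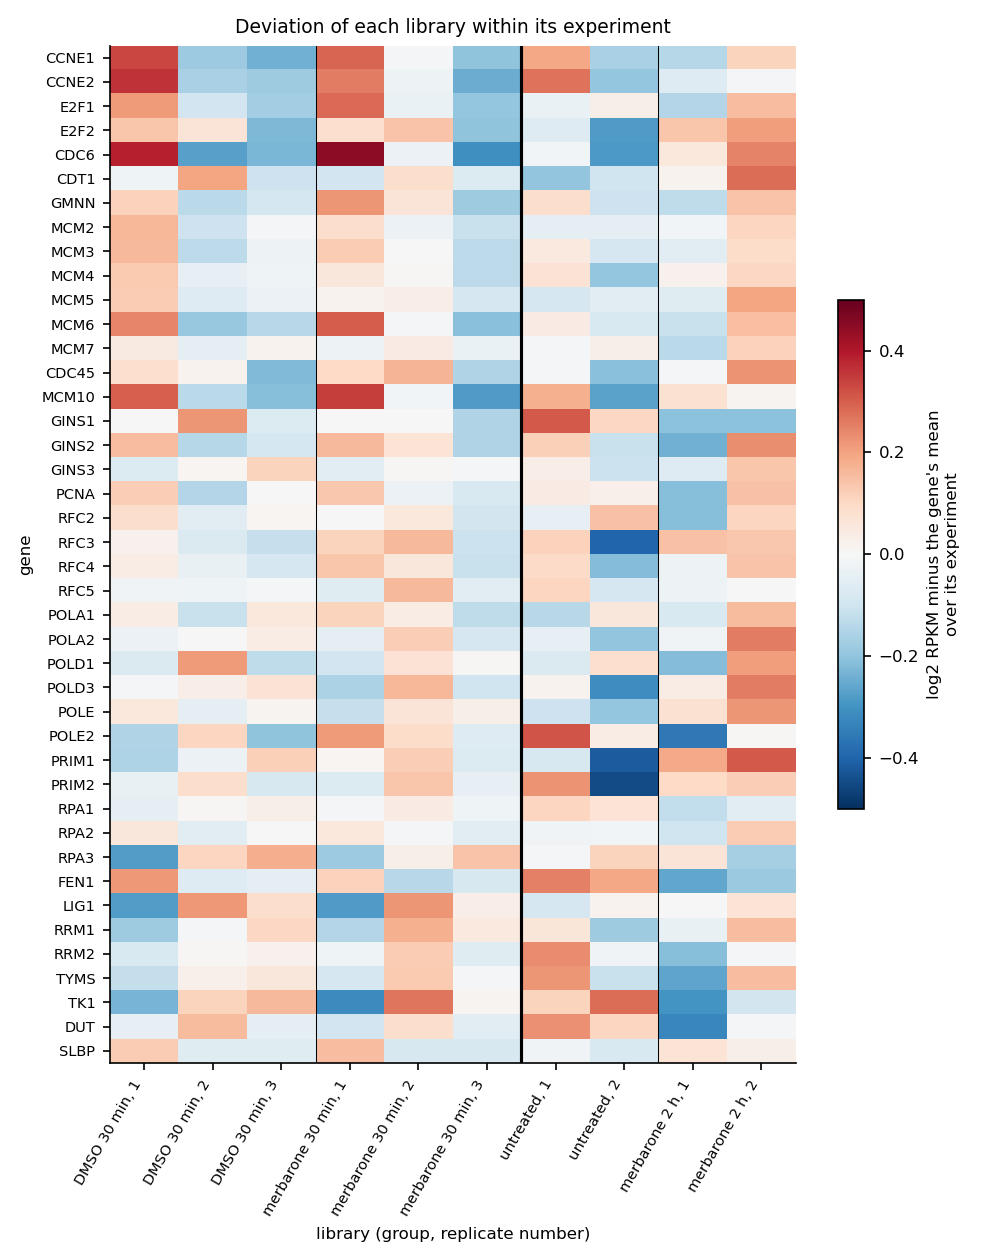
Log2 RPKM of each replication gene in each library minus the gene's mean over its experiment (colour, red above and blue below), with the 30 min experiment left of the thick line and the 2 h experiment right of it. CDC6, MCM10, CCNE2 and E2F1 are red in replicate 1 of both DMSO and merbarone, while TK1 and LIG1 are blue there.

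In the 2 h experiment the libraries also differed within groups. The second merbarone library lay above the experiment mean for 34 of the 42 genes, with a median deviation of 0.13 on the log2 scale. The first merbarone library lay above it for 12, with a median of -0.06. The share of all genes above the mean was not computed. These deviations cover 42 genes without a pseudocount, while the median treatment effect of 0.01 covers the 26 genes tested on log2(RPKM + 1). That median effect moved to 0.11 without the first merbarone library and to -0.07 without the second. The count called moved from 1 to 4 (CDC6 and POLE higher, FEN1 and TK1 lower) without the first untreated library and to 3 (DUT, FEN1 and RRM2, all lower) without the second. Over all genes those fits called 37.2% and 19.7%.

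A contrast over all 10 libraries asked whether the effect at 2 h differed from that at 30 min. Of 28 replication genes tested limma called 0, against 1.63% of 6558 genes, and 2 had an unadjusted p under 0.05. These were FEN1, whose effect was -0.36 ± 0.14 (SE, adjusted p 0.268) relative to 30 min, and POLE, at 0.17 ± 0.07 (SE, adjusted p 0.289). With the replicate number as a block 3 of the 28 were called, CDT1 higher and FEN1 and TK1 lower, in a fit that called 19.1% of all genes. Time, kind of control and experiment cannot be told apart in this contrast.

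The controls of the experiments also differed, in replication genes as over all genes. DMSO libraries were set against untreated ones for 28 genes, of which 26 reached 1 RPKM in both groups, while POLA2 and POLD1 did so in 1 only. Limma called 7 (25%), with 6 lower and 1 higher in DMSO, a share under the 29.4% of all 6544 genes. The largest was FEN1, with a log2 difference of -0.89 ± 0.11 (SE, adjusted p 0.0026). The log2 difference was -0.46 ± 0.11 for E2F1, -0.46 ± 0.13 for TK1, -0.39 ± 0.11 for RRM2 and -0.39 ± 0.09 for GINS2 (SE), with limma adjusted p of 0.024, 0.0343, 0.0374 and 0.0199. RPA2 was the sixth, and RRM1 was higher by 0.34 ± 0.10 (SE, adjusted p 0.0465). For E2F1 the 3 DMSO values of 3.997 to 5.22 RPKM lay below the untreated 6.37 and 6.66.

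The balance of higher and lower calls between the controls depended on the scaling. Each of the 7 replication genes called above kept its direction in every setting that tested it. E2F1, for example, ran from -0.56 to -0.35 and RRM1 from 0.25 to 0.43. Of all genes called 32.6% were higher in DMSO, and 53.5% were with median scaling, 52.5% with quantile normalization and 49.8% after removing GC dependence. The replication genes called were 3 higher and 4 lower with median scaling, 1 and 2 with quantile normalization, and 4 and 2 after removing GC dependence. The median of the 28 replication genes tested, -0.12, became 0.02 with quantile normalization and 0.01 after removing GC dependence. FEN1 was lower in all 15 alternatives, and without either untreated library it was the 1 gene called, in fits that called 12.9% and 4.67% of all genes. The count was 2 without the third DMSO library and 4 without the second, where 13.9% and 30.2% of all genes were called. On recovered reads voom called 8 of 42 genes, against 24.2% of 13820 genes, with E2F2 at -0.59 and POLA1, the catalytic subunit of polymerase alpha, at -1.16 among them and RPA2 not. POLA1 measured 0.113, 0.102 and 0.114 RPKM in DMSO and 0.229 and 0.262 untreated. Of 5 epithelial line markers tested 3 passed between the same libraries, KRT8 and KRT18 lower in DMSO and CTNNB1 higher. KRT18 had a mean of 59.5 RPKM untreated and 17.0 in DMSO. Of 3 pigment epithelium markers tested BEST1 passed, with the largest log2 difference of the markers limma tested on log2(RPKM + 1), -2.47 ± 0.11 (SE, limma adjusted p 8.43e-05). BEST1 overlaps FTH1 in the annotation and KRT8 overlaps KRT18, and how reads were split within either pair was not tested. On recovered reads voom also called MITF (-0.49, adjusted p 0.0199) lower in DMSO, and LRAT, SNAP25 (1.19, adjusted p 0.0255) and the epithelial marker TJP1 higher. The part of these markers in the result was not tested. Vehicle, experiment and depth cannot be told apart here.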

How the data were processed

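The authors deposited 1 RPKM table per library. Per the submitters' processing notes, builds hg19/GRCh37 and the tools Bowtie 1.2.0, DESeq2, edgeR and deepTools 2.4.1 were used; their roles, the annotation, gene lengths and strand setting are not given in the sources used here. Per the labels' protocols, a stranded mRNA kit was used on 150 ng of RNA. Symbols came from a table of gene names, and coordinates from a GRCh37 annotation. Whole reads were recovered from the deposited RPKM for 100% of 17680 genes above 0, within 0.0001 read, and their sums lay within 0.0269% of the implied totals. Each experiment was fitted with limma 3.58.1 (R 4.3.3; lmFit, eBayes with trend) on log2(RPKM + 1), which understates the change of low genes, for genes averaging 1 RPKM or more. Tests were two-sided, with Benjamini-Hochberg adjustment over all genes and a threshold of 0.05. No pair of replicate libraries was identical.

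The members and lists were chosen with earlier results of these data known. Full values were planned for the 5 largest falls and rises among members past the threshold in each comparison. They were also planned for E2F1, CCNE2, CDC6, MCM2, PCNA, RRM2 and UHRF1, of which the last could not be matched to the tables. GINS2 and RRM1, called between DMSO and untreated libraries, are given without RPKM per library. Of other lists at most the 3 largest falls and rises past the threshold are named. TK1 at 2 h, DUT, CDT1, POLE, POLA1, GINS1 and E2F2 with their statistics, and the printed promoters, were chosen after their values were seen. Settings also tried were quantile normalization, median scaling, a pseudocount of 0.1, a minimum of 5 RPKM or none, a constant prior variance, removal of GC dependence, all 10 libraries in 1 fit, voom on recovered reads, the replicate block and leaving out each library. The minimum mean of 10 reads for voom was added after seeing the data. At 30 min same-numbered libraries deviated together, with correlations of 0.925, 0.646 and 0.605, so the labels' numbers pair them. The fits were tested on simulated data. Python with NumPy 2.4.6, pandas 2.3.3 and matplotlib 3.10.9 was used.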

Additional observations from a re-analysis of the deposited data

How the results depend on the processing

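The count of 0 replication genes called at 30 min was the same in all 19 alternatives. At 2 h the count of 1 became 0 without a filter and with quantile normalization, 2 with voom at 1 RPKM, 5 after removing GC dependence and 3 with voom at 10 reads, in fits that called 0.315%, 11.8%, 16.8%, 27.1% and 14.0% of all genes. Leaving out a library gave 0 to 4 at 2 h, where the lone library of a group is assumed to vary like the other group, and a median log2 fold change of -0.066 to 0.106. DMSO against untreated gave 3 without a filter, 4 at 5 RPKM, 3 with quantile normalization and 1 to 7 when a library was left out, against 7, with 13.8%, 33.8% and 27.0% of all genes called in the first 3 of these settings. The causes were not tested. With the replicate block the 2 h count was 6 of 26 in limma, 6 of 26 with voom and 9 of 42 with voom at 10 reads, in fits that called 32.2%, 32.0% and 25.6% of all genes. The difference between the effects gave 3, 2 and 2 against 0, where 19.1%, 20.1% and 15.1% of all genes were called. At 2 h same-numbered libraries correlated at 0.30 over all genes, and differently numbered ones at -0.30. With 2 libraries per group these values are tied to each other, so whether the numbers pair the libraries cannot be told. The 2 h block fit had 1 residual degree of freedom. In the 30 min experiment, where the numbers pair the libraries, the block left the count at 0. For DMSO against untreated, no paired analysis was possible because the groups belong to different experiments. The 2 h libraries held fewer reads than the 30 min ones. In RPKM, which is scaled to the library total, 16 of 42 genes fell under the filter at 2 h and 13 at 30 min.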
